A study of Mus musculus with 36 samples.

Results

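Gastrocnemius muscle of wild-type (WT) mice collected at zeitgeber time (ZT) 16 was compared with the same muscle collected at ZT4. Zeitgeber time counts hours from the lighting cue of the housing, with ZT0 by convention at lights on and ZT12 at lights off, so that ZT16 falls early in the active phase of a nocturnal animal and ZT4 early in its rest phase. The light schedule, feeding, age and sex of the mice were not given in the sources used here. The comparison used 6 of the 36 libraries of the series, 3 labelled as biological replicates at ZT16 and 3 at ZT4. The other libraries came from WT mice at ZT0, ZT8, ZT12 and ZT20 and from mice whose Bmal1 was deleted in the liver alone (Bmal1hep-/-) at the same 6 times. The alleles behind either genotype and the promoter that drives the liver deletion were not given in the sources used here. The series asks how the liver clock bears on rhythms of the muscle transcriptome, and the ZT16 and ZT4 groups of WT mice give the time-of-day difference in muscle of animals with an intact liver clock.

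The circadian clock of a muscle fibre is a feedback loop of transcription factors. BMAL1, encoded by Arntl, pairs with CLOCK to activate E-box genes, among them the Period and Cryptochrome genes, whose proteins return to block the pair, and Nr1d1, whose protein REV-ERB alpha represses Arntl through a ROR response element (RORE). Output factors of the loop, together with feeding and the daily rise of glucocorticoids, set the time at which genes of fuel use, amino acid handling and growth are transcribed in this tissue.

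Values were FPKM per gene as the authors deposited them, that is, fragments scaled to transcript length and library size. Tests were made with limma on log2(FPKM + 1), which understates the change of low genes, for the 10837 genes whose FPKM averaged 1 or more across all 36 libraries, and a gene was called at a Benjamini-Hochberg adjusted p under 0.05. Every log2 difference below is ZT16 minus ZT4 with its standard error, and because no label names an animal the p-values measure only the spread between these samples.

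Pearson's r across genes was 0.9847 to 0.99 among ZT16 replicates, 0.99 to 0.9912 among ZT4 replicates and 0.9827 to 0.9872 between the times. Absolute depth is unknown, but the steps between low values gave relative depths of 58.9% to 75.1% of the deepest library at ZT16 and 60.4% to 70.9% at ZT4. ZT16 replicate 3 stood apart from the other libraries at its time: its deviation from the mean fell with transcript length (Spearman's rho of -0.389 across genes, against 0.089 and 0.043 in ZT16 replicates 1 and 2 and 0.04 to 0.21 at ZT4). The summed level of 12 skeletal muscle fibre markers was 103000 to 127000 FPKM at ZT16 and 104000 to 109000 FPKM at ZT4. Myh4, the fast myosin of type IIB fibres, is one of these markers and was listed at 0 FPKM in all 6 libraries. It was at 0 in 34 of the 36 libraries and at 7445 and 8323 FPKM in the other 2, so its zeros are not read as a level of the transcript.

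The 2 times differed in 140 genes, 1.29% of those tested, of which 77 (0.711%) were higher and 63 (0.581%) lower at ZT16. The median change was 0.80 among the higher genes, 20 of which rose by at least 2-fold, and -0.65 among the lower genes, 9 of which fell by at least 2-fold, on the log2(FPKM + 1) scale. The median over all genes tested was -0.004, and the 95% interval of a gene's change reached a median of 0.30 to either side. In each of the 140 genes the 3 ZT16 libraries lay entirely on one side of the 3 ZT4 libraries, which was also the case for 19.9% of all tested genes, 9.79% in the higher and 10.2% in the lower direction. At an unadjusted p under 0.05 the count was 970 genes. The counts depended on having 3 libraries at each time. Leaving out ZT16 replicates 1, 2 and 3 in turn gave 32, 46 and 43 higher genes and 19, 42 and 33 lower genes. Leaving out ZT4 replicates 1, 2 and 3 gave 42, 29 and 46 higher genes and 29, 15 and 47 lower genes. Of the 140 genes, 36 passed in each of these 6 fits, and 29 passed in those and in all 12 other settings tried. A gene that a setting did not test was counted as not passing there.

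**Figure D1:**
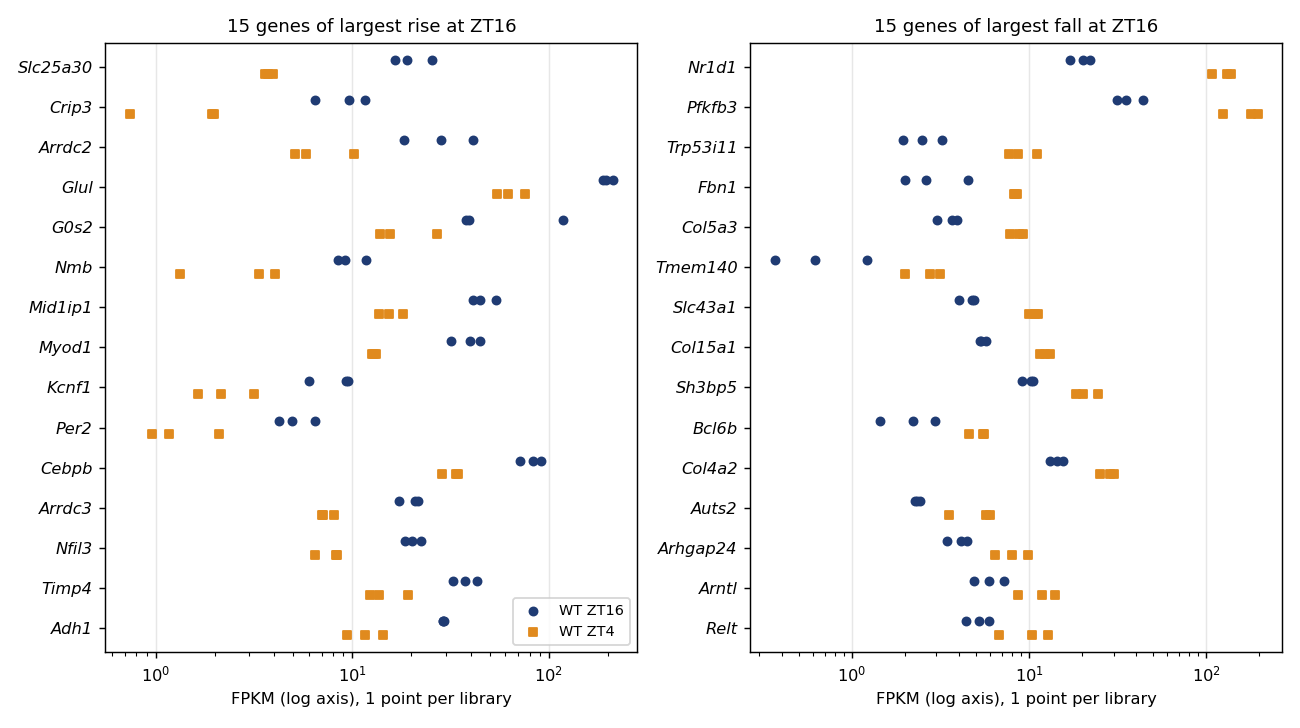
FPKM on a log axis in each library (WT ZT16 dark blue circles, WT ZT4 orange squares) for the 15 genes of largest rise and the 15 of largest fall at ZT16. In every gene shown the 3 points of one time lie apart from the 3 of the other; Slc25a30, Glul and Myod1 have narrow ZT4 or ZT16 groups, and G0s2 has 1 ZT16 library at 118 FPKM beside 2 at 37.9 and 39.3 FPKM.

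The negative limb of the clock gave the largest fall. Nr1d1, the REV-ERB alpha repressor, stood at 22, 20.1 and 16.9 FPKM at ZT16 and at 139, 131 and 108 FPKM at ZT4. All 3 ZT16 libraries were far below all 3 ZT4 libraries, and the change was -2.62 ± 0.17 (limma adjusted p 1.16e-11). Arntl, whose transcription REV-ERB alpha represses, was also lower, with 4.86, 7.21 and 5.95 FPKM at ZT16 and 14, 11.8 and 8.72 FPKM at ZT4. The groups did not overlap, though ZT4 replicate 3 was close to ZT16 replicate 2, and the change was -0.82 ± 0.16 (limma adjusted p 0.0058). That call was lost without ZT16 replicate 1 or ZT4 replicate 1, with an adjusted p of up to 0.0755, and when only the 6 libraries were fitted (0.0631).

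Per2, the Period protein of the repressor complex, moved the other way, with 6.50, 4.23 and 4.93 FPKM at ZT16 against 1.17, 0.962 and 2.11 FPKM at ZT4. The lowest ZT16 library held more than the highest ZT4 library, and the change was 1.38 ± 0.18 (limma adjusted p 2.68e-05). Nfil3, a bZIP repressor that competes with the PAR bZIP factors for D-boxes, stood at 20.2, 18.6 and 22.4 FPKM at ZT16 against 8.28, 8.34 and 6.47 FPKM at ZT4. Both groups were narrow and well separated, with a change of 1.30 ± 0.17 (limma adjusted p 2.68e-05).

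The other members of the loop were not called, so 4 of 17 tested clock genes considered here passed, 2 in each direction. Of all tested genes 1.29% passed. Ciart, which encodes the repressor CHRONO, was 1.66, 1.02 and 1.34 FPKM at ZT16 and 2.69, 2.54 and 4.22 FPKM at ZT4, without overlap and just short of the threshold (-0.81 ± 0.22, limma adjusted p 0.0547). Clock was likewise below ZT4 in every library (-0.54 ± 0.17, limma adjusted p 0.16), as were Bhlhe40 (-0.34) and Bhlhe41 (-0.42). Bhlhe40 and Bhlhe41 encode the DEC repressors. Clock passed under 4 other settings (limma adjusted p 0.00803 to 0.0447) but in no fit without 1 of the 6 libraries. Per1 had a value of 0.59 (limma adjusted p 0.228) with overlapping groups, and Per3 0.33. The cryptochromes Cry1 and Cry2 had values of 0.31 and 0.14, and the ROR activator Rora 0.21. Dbp, the PAR bZIP factor often used as a marker of clock output, was 34.1, 30.3 and 40.2 FPKM at ZT16 and 39.0, 30.4 and 56.7 FPKM at ZT4. These ranges overlap (-0.23 ± 0.28, limma adjusted p 0.925), and the related Tef and Hlf had values of 0.17 and 0.18. Nr1d2, the paralogue of Nr1d1, was -0.15 ± 0.15 with overlapping groups. Npas2 and Rorb were below the filter on level and were not tested.

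Over the 6 WT times the called clock genes had different peaks, so that ZT16 and ZT4 cut each daily profile at a different point. Nr1d1 had its highest mean at ZT4 (126 FPKM) and its lowest at ZT16 (19.7 FPKM), with 64.3, 74.5, 43.6 and 21.9 FPKM at ZT0, ZT8, ZT12 and ZT20. Arntl had its highest mean at ZT0 (16.1 FPKM) and its lowest at ZT12 (2.05 FPKM), so its means of 6.01 FPKM at ZT16 and 11.5 FPKM at ZT4 lay between the extremes. Mean Per2 was highest at ZT12 with 7.11 FPKM, and mean Nfil3 was highest at ZT20 with 28.1 FPKM and lowest at ZT8 with 4.48 FPKM.

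**Figure D2:**
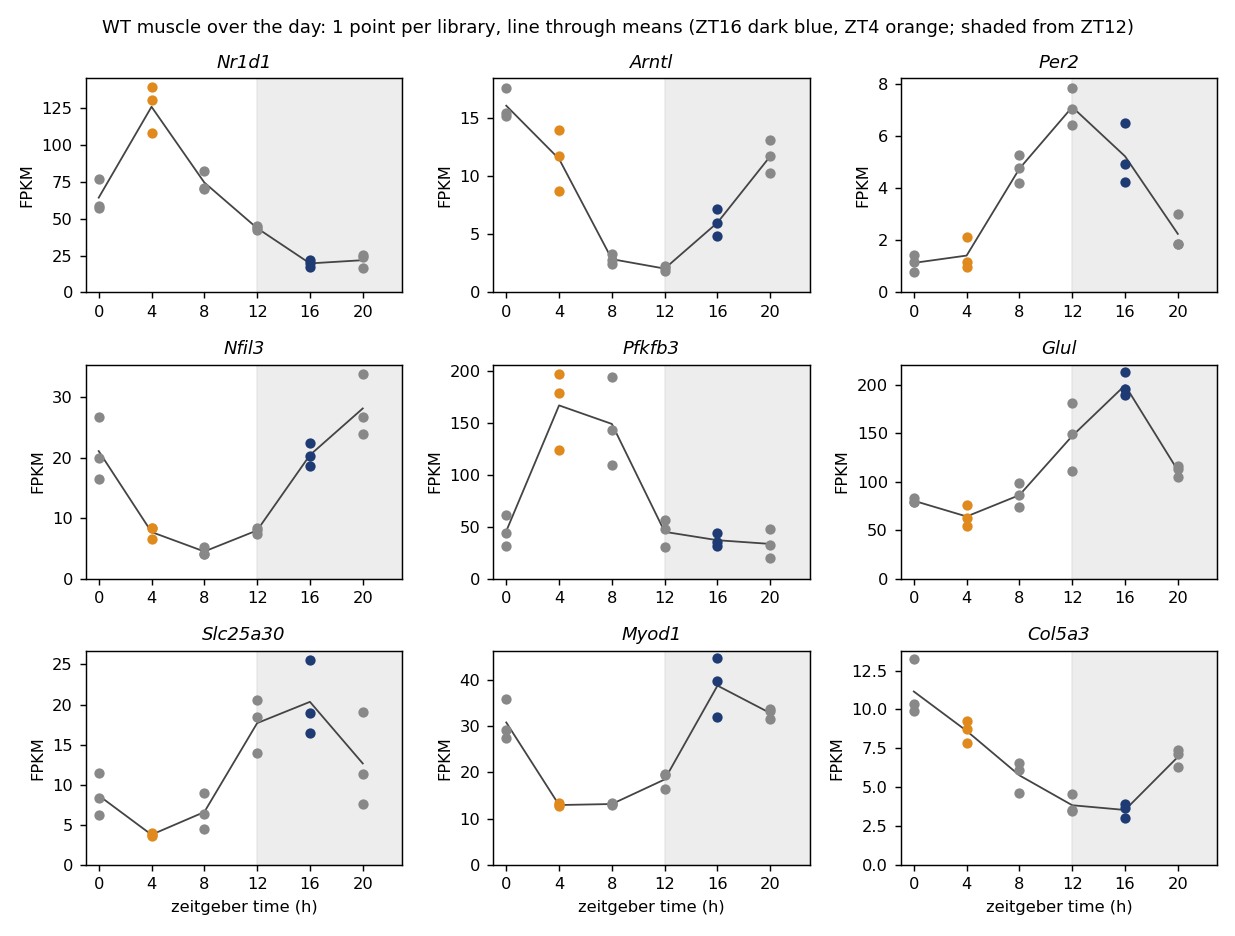
FPKM of 9 genes in every WT library over the 6 zeitgeber times, with the compared times in dark blue (ZT16) and orange (ZT4) and a line through the means; shading starts at ZT12. Nr1d1 and Slc25a30 have one compared time at the top and the other at the bottom of the day, whereas Arntl and Nfil3 reach their extremes at other times.

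The promoters of 3 called genes with a RORE core and of 1 with a glucocorticoid response element are printed here because these genes belong to the clock, glutamine and glucocorticoid results. The windows run from 250 bases before to 50 after the RefSeq start in GRCm38.p6, and capitals mark the match. They are Arntl at chr7:113207261-113207560 (plus strand), Nfil3 at chr13:52980990-52981289 (minus strand), Glul at chr1:153899679-153899978 (plus strand) and Mt1 at chr8:94178839-94179138 (plus strand).
Arntl: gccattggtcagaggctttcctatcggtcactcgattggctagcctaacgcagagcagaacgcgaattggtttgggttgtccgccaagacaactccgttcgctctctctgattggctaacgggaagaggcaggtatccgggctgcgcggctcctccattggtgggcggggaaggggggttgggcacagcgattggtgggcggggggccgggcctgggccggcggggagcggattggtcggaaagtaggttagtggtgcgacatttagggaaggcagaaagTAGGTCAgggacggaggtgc
Nfil3: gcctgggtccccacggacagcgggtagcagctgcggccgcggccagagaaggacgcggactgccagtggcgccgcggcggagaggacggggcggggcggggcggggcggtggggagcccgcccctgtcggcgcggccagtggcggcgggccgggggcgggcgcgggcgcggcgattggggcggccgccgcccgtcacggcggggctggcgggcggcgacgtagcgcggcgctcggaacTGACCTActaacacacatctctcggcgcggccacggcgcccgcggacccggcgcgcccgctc
Glul: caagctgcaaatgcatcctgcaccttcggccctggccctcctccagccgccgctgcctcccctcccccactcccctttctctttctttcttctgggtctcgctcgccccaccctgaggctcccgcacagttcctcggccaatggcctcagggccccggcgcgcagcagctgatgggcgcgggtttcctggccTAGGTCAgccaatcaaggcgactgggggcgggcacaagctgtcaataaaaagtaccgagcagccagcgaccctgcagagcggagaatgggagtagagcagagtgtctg
Mt1: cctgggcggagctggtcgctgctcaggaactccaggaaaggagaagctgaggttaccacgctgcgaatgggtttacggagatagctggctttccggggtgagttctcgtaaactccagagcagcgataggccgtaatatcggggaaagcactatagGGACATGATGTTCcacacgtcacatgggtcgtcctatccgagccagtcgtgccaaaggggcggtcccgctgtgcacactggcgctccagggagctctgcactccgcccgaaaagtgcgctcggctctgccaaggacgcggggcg

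Promoter windows were found for 112 of the 140 called genes and for 8714 tested genes, and each motif was searched on both strands, with no match shared between motifs in these 4 windows. The RORE core TAGGTCA was in 2.23% of tested windows, in 3 of 60 genes higher at ZT16 (Egflam, Glul and Nfil3, 5.0%) and in 2 of 52 lower genes (Arntl and Leo1, 3.85%). In Nfil3 it lies on the opposite strand, just before the start. The palindromic glucocorticoid response element was in 0.436% of tested windows and in 3 higher genes (Fam107a, Map3k6 and Mt1, 5.0%), with none among the lower genes. The cAMP response element TGACGTCA was in 3.74% of tested windows, in 0 higher and in 5 lower genes (9.62%), among them Ppp1r15a and Flcn. The E-box CACGTG was in 12.3% of tested windows, 11.7% of the higher and 7.69% of the lower genes. These genes were singled out for their matches after the values were seen, and a match is a description of the letters in the window.

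Among clock outputs shared by many tissues, 7 of 14 tested genes were called higher at ZT16 and 1 lower, with a median of 0.48, against 77 and 63 of 10837 and a median of -0.004 for all genes. Wee1, the kinase that holds cells before mitosis, was 2.17, 2.41 and 2.04 FPKM at ZT16 and 0.855, 0.828 and 1.30 FPKM at ZT4 (0.69 ± 0.12, limma adjusted p 0.00197). It passed in each fit without 1 library, as did the only lower gene, Leo1, a subunit of the PAF1 elongation complex (-0.62 ± 0.09, limma adjusted p 0.000255). Leo1 stood at 6.39, 6.53 and 6.39 FPKM at ZT16 and at 11, 9.74 and 10.6 FPKM at ZT4, and both groups were narrow. Fmo2 (0.97 ± 0.22), Tmem57 (0.55 ± 0.12) and Herpud1 (0.41 ± 0.09), which acts in disposal of misfolded proteins of the endoplasmic reticulum, were called higher. These 3 calls depended on most libraries: Herpud1 passed only without ZT4 replicate 3, Fmo2 only without ZT16 replicate 3 or ZT4 replicate 1, and Tmem57 only without ZT16 replicate 3 or ZT4 replicate 2, with adjusted p of up to 0.102 otherwise. Without ZT16 replicates 1, 2 and 3 in turn the list held 2, 3 and 4 higher genes, and without ZT4 replicates 1, 2 and 3 it held 3, 3 and 4, with medians of 0.45 to 0.54.

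Among glucocorticoid targets, 4 of 23 tested genes were higher and 0 lower, with a median of 0.30. Positive values were found for 16 of the 23 and negative values, down to -1.1, for 7. Of all tested genes, 0.711% were higher and 0.581% lower, with a median of -0.004. Tsc22d3, which encodes the anti-inflammatory leucine zipper protein GILZ, was 156, 134 and 169 FPKM at ZT16 and 83.3, 85.0 and 93.8 FPKM at ZT4. The groups were far apart and the change was 0.80 ± 0.13 (limma adjusted p 0.000452). Fkbp5, a co-chaperone of the glucocorticoid receptor, was 17.4, 18.5 and 19.8 FPKM at ZT16 and 10.1, 8.46 and 9.30 FPKM at ZT4. Its change of 0.93 ± 0.22 passed with all libraries (limma adjusted p 0.0242) but in none of the 6 fits without 1 library, where the adjusted p reached 0.139. Mt1, a metallothionein that binds zinc and copper, stood at 66.6, 47.0 and 46.3 FPKM at ZT16 and at 25.2, 24.4 and 22.8 FPKM at ZT4 (1.09 ± 0.23, limma adjusted p 0.0129). The call of Mt1 was lost without ZT16 replicate 1 or ZT4 replicate 2 or 3, with an adjusted p of up to 0.132. The fourth is Glul, described with the amino acid genes. Tsc22d3 and Fkbp5 are also counted among the 7 higher clock outputs, so the 2 lists are not separate results. The list held 2 higher genes without ZT16 replicate 1 or ZT4 replicate 2 or 3, and 3 without each other library.

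Glutamine synthetase and a pair of amino acid carriers were higher at ZT16. Glul, glutamine synthetase, which joins ammonia to glutamate and makes muscle an exporter of glutamine, stood at 189.7, 196 and 213 FPKM at ZT16 and at 54.2, 62.2 and 76.0 FPKM at ZT4. No ZT16 library came near a ZT4 library, and the change of 1.63 ± 0.15 had a limma adjusted p of 6.37e-08. Slc7a2, a carrier of arginine and lysine, was 16.7, 16.8 and 19.3 FPKM at ZT16 against 8.14, 7.84 and 8.76 FPKM at ZT4 (1.01 ± 0.16, limma adjusted p 0.000452). Slc7a8, the light chain LAT2 of a neutral amino acid exchanger, was 8.12, 6.68 and 8.51 FPKM at ZT16 against 4.49, 3.98 and 4.40 FPKM at ZT4 (0.73 ± 0.11, limma adjusted p 0.00017). These 3 were the only called genes among 22 tested of the amino acid, glutamine and polyamine list, against 0.711% of all tested genes called higher. The list's median of 0.03 was near that of all genes, and each of the 3 passed in all 6 fits without 1 library. Another neutral amino acid carrier outside that list went the other way: Slc43a1 was 4.75, 4.01 and 4.86 FPKM at ZT16 and 10.1, 10.8 and 11.2 FPKM at ZT4 (-1.08 ± 0.18, limma adjusted p 0.000991).

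The mitochondrial carrier family held the largest rise among called genes. Slc25a30, a member of the SLC25 family of inner-membrane carriers, stood at 25.6, 19 and 16.4 FPKM at ZT16 and at 3.73, 3.60 and 3.94 FPKM at ZT4. The ZT4 libraries were nearly equal, while ZT16 replicate 1 was above the other ZT16 libraries, and the change was 2.14 ± 0.34 (limma adjusted p 0.000553). It was called in each fit without 1 library. Slc25a29, a carrier of basic amino acids, was called at 0.61 ± 0.16 (limma adjusted p 0.044) but passed only without ZT16 replicate 1 among the fits without 1 library, with an adjusted p of up to 0.372 otherwise. The other 30 tested carriers were not called, and the list's median was 0.03. Genes of respiration itself were not called by limma. None of the 37 tested subunits of respiratory complex I (median 0.04), the 42 of complexes II to V (0.07) or the 21 enzymes of the tricarboxylic acid cycle (0.06) was called, and Ndufs7, the complex I gene of smallest p, had a value of 0.33 (limma adjusted p 0.627). At an unadjusted p under 0.05 these lists held 0, 1 and 0 genes.

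Alpha-arrestins, adaptors that bring ubiquitin ligases to receptors and nutrient carriers in the membrane, included 2 of the largest rises. Arrdc2 was 41.2, 18.5 and 28.5 FPKM at ZT16 and 5.15, 5.83 and 10.2 FPKM at ZT4 (1.90 ± 0.30, limma adjusted p 0.000607). The ZT16 libraries were widely spread but all above ZT4, and when only the 6 libraries were fitted the adjusted p was 0.0806. Arrdc3 was 21.6, 20.9 and 17.2 FPKM at ZT16 and 7.12, 8.08 and 7.06 FPKM at ZT4, with a change of 1.31 ± 0.17 (limma adjusted p 3.42e-05). The other 3 members tested had negative values, and none of them was called. Thus 2 of 5 tested members were called higher, against 0.711% of all tested genes.

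In sugar metabolism the bifunctional enzymes that set fructose 2,6-bisphosphate, the activator of phosphofructokinase, moved in opposite directions. Pfkfb3, the isoform with the strongest kinase activity, stood at 44.2, 35.1 and 31.5 FPKM at ZT16 and at 124, 197 and 179 FPKM at ZT4. The change was -2.13 ± 0.49 (limma adjusted p 0.0256), and the WT means at the other times ran from 149 FPKM at ZT8 to 33.4 FPKM at ZT20. Among the fits without 1 library it passed only without ZT4 replicate 1, with an adjusted p of up to 0.153 otherwise. Pfkfb4 was 29.7, 27.1 and 32.1 FPKM at ZT16 and 23.7, 18.3 and 20.7 FPKM at ZT4 (0.49 ± 0.12, limma adjusted p 0.0315), and passed only without ZT16 replicate 2 or ZT4 replicate 1, with up to 0.268 otherwise. The remaining 20 tested genes of the glycolysis list were not called, and the list's median was 0.17. Ppp1r3c, which targets protein phosphatase 1 to glycogen, was 229, 202 and 225 FPKM at ZT16 and 118, 153 and 104 FPKM at ZT4. Its change of 0.81 ± 0.21 (limma adjusted p 0.044) was the only call among 19 glycogen genes and passed in none of the fits without 1 library, with an adjusted p of up to 0.238.

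Of 14 tested genes of perilipins and lipid droplet lipases 1 was called, G0s2, with a list median of 0.04. Mid1ip1, which is in none of the lists, is another of the 15 largest rises. It encodes a protein that promotes the polymerisation of acetyl-CoA carboxylase, and stood at 44.7, 41.1 and 53.7 FPKM at ZT16 and 13.7, 18.2 and 15.4 FPKM at ZT4 (1.5 ± 0.27, limma adjusted p 0.00236), and it passed without any 1 library. G0s2, the inhibitor of adipose triglyceride lipase, was 39.3, 37.9 and 118 FPKM at ZT16 and 13.8, 27 and 15.5 FPKM at ZT4. ZT16 replicate 3 alone was far above the others at its time. The change of 1.59 ± 0.41 (limma adjusted p 0.044) was lost in each fit without 1 library except that without ZT16 replicate 2, and the adjusted p reached 0.367 without ZT16 replicate 3. Summed adipocyte markers were 2310 to 2630 FPKM at ZT16 and 1610 to 2140 FPKM at ZT4, mostly from Car3, which muscle fibres also express. None of the 8 tested adipocyte markers was called, 4 of them had positive values, and Ucp1 was listed at 0 in all 6 libraries; the part of adipocytes in these results was not tested. Fasting genes of the PPAR list were not called by limma, with 5 of 23 at an unadjusted p under 0.05. In that list 16 of 23 tested genes had negative values (median -0.14), and Pdk4, the kinase that switches off pyruvate dehydrogenase, was 109, 98.3 and 61.3 FPKM at ZT16 and 113, 295 and 197 FPKM at ZT4 (-1.10 ± 0.37, limma adjusted p 0.232).

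Myod1, the myogenic transcription factor that adult fibres keep expressing and that the clock is known to drive, had the smallest standard error among the 15 largest rises. It stood at 39.7, 31.9 and 44.7 FPKM at ZT16 and at 12.9, 13.3 and 12.7 FPKM at ZT4, a change of 1.5 ± 0.14 (limma adjusted p 6.37e-08). The ZT4 libraries were nearly equal and all ZT16 libraries exceeded them by a wide margin. No other of the 19 tested myogenic and satellite cell genes was called, and the list's median was 0.03. Summed satellite cell markers were 13 to 15.3 FPKM at ZT16 and 17 to 18 FPKM at ZT4, with 1 of 4 tested markers positive and none called, and the part of satellite cells in the Myod1 value was not tested. Of the structural genes of the fibre, none of 14 slow and 15 fast fibre genes was called, leaving out Myh4, with medians of -0.05 and 0.02, and 1 and 0 of them had an unadjusted p under 0.05. The 1 slow gene is Casq2, a calcium-binding protein of the sarcoplasmic reticulum, at 6.53, 7.61 and 8.82 FPKM at ZT16 and 9.16, 17.1 and 14.4 FPKM at ZT4 (-0.72 ± 0.19, limma adjusted p 0.0533).

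Other genes among the 15 largest rises have varied roles. Cebpb, a bZIP factor of stress and differentiation, was 82.9, 71.2 and 91.0 FPKM at ZT16 and 28.5, 34.5 and 33.7 FPKM at ZT4 (1.31 ± 0.30, limma adjusted p 0.0242), and passed only without ZT16 replicate 2 among the fits without 1 library, with up to 0.122 otherwise. Kcnf1, a silent subunit that modifies voltage-gated potassium channels, was 9.35, 9.51 and 6.06 FPKM at ZT16 and 3.18, 1.64 and 2.15 FPKM at ZT4 (1.49 ± 0.29, limma adjusted p 0.00528). Only the fit without ZT4 replicate 2 lost the call of Kcnf1, with an adjusted p of 0.0619. Timp4, an inhibitor of matrix metalloproteinases, was 43.1, 32.8 and 37.4 FPKM at ZT16 and 13.7, 12.4 and 19.2 FPKM at ZT4 (1.28 ± 0.23, limma adjusted p 0.00197) and passed without any 1 library. Nmb, which encodes the peptide neuromedin B, and Crip3, a LIM-domain protein, had changes of 1.53 ± 0.39 and 2.01 ± 0.47 with limma adjusted p of 0.0427 and 0.0267. Nmb passed in none of the fits without 1 library (up to 0.36) and Crip3 only without ZT16 replicate 3 (otherwise up to 0.171).

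Adh1, the class I alcohol dehydrogenase, was 29, 29.2 and 29.1 FPKM at ZT16 and 11.7, 9.46 and 14.4 FPKM at ZT4 (1.25 ± 0.21, limma adjusted p 0.000991). Hepatocyte markers were at low levels in these libraries, with higher sums at ZT16 than at ZT4. Summed hepatocyte markers were 16.1 to 34.1 FPKM at ZT16 and 3.27 to 5.74 FPKM at ZT4, all 5 tested markers were positive with a median of 1.41, and none was called, with 3 at an unadjusted p under 0.05 and 4 called when only the 6 libraries were fitted. Alb, serum albumin, was 4.14, 4.44 and 3.45 FPKM at ZT16 and 0.445, 0.204 and 0.0576 FPKM at ZT4 (2.03 ± 0.65, limma adjusted p 0.186), while Ttr and Fgb were listed at 0 in all 3 ZT4 libraries. Over all 36 libraries the median of the sum was 13.3 FPKM. In Bmal1hep-/- muscle the same markers had a median of -0.38 and Adh1 a change of 0.82 (limma adjusted p 0.0467); the part of liver RNA in the values of genes that liver also expresses, such as Adh1 and Mt1, was not tested.

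Col5a3, Fbn1, Col15a1 and Col4a2 encode extracellular matrix proteins and were set side by side here after their values were seen. Col5a3, a chain of fibrillar collagen V, was 3.90, 3.66 and 3.02 FPKM at ZT16 and 9.26, 7.85 and 8.73 FPKM at ZT4 (-1.09 ± 0.19, limma adjusted p 0.00192), and passed without any 1 library. Col4a2, a chain of basement membrane collagen IV, was 13.2, 15.6 and 14.4 FPKM at ZT16 and 28.8, 25.2 and 30.2 FPKM at ZT4 (-0.92 ± 0.19, limma adjusted p 0.00926). Col15a1, a collagen of the zone beneath the basement membrane, was 5.36, 5.69 and 5.26 FPKM at ZT16 and 12.2, 11.6 and 13.1 FPKM at ZT4 (-1.05 ± 0.23, limma adjusted p 0.016). In all 3 collagens the groups were narrow and well apart. Fbn1, fibrillin of the elastic microfibrils, was 2.6, 4.52 and 1.98 FPKM at ZT16 and 8.37, 8.21 and 8.54 FPKM at ZT4 (-1.27 ± 0.30, limma adjusted p 0.0254). Of the 20 tested collagen and matrix genes, a list that holds Col4a2 and Col15a1 but neither Col5a3 nor Fbn1, 2 were called lower and 0 higher. The shares of all tested genes were 0.581% lower and 0.711% higher. Of these 20, 19 had negative values, with a median of -0.41 against -0.004 for all genes. Neither call remained without ZT16 replicate 1, with adjusted p of 0.0713 for Col4a2 and 0.0723 for Col15a1. Col4a2 was lost as well without ZT4 replicate 3. Col15a1 and Fbn1 each passed in only 1 of the 6 fits without 1 library, that without ZT16 replicate 2, and Fbn1 reached 0.179 without ZT16 replicate 3.

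Kdr, the main receptor for vascular endothelial growth factor, was 7.15, 9.30 and 7.99 FPKM at ZT16 and 14.8, 14.6 and 14.2 FPKM at ZT4 (-0.77 ± 0.17, limma adjusted p 0.0149). Its call was lost without ZT16 replicate 1 or 3 or ZT4 replicate 1 or 2, with up to 0.119. Kdr was the only call among 12 endothelial markers, of which 9 had negative values (median -0.18). Summed endothelial markers were 169 to 180 FPKM at ZT16 and 196 to 215 FPKM at ZT4, without overlap. Summed fibro-adipogenic markers were 300 to 440 FPKM at ZT16 and 386 to 395 FPKM at ZT4, with 3 of 7 tested markers negative (median 0.003). Summed tendon markers were 116 to 237 FPKM at ZT16 and 178 to 229 FPKM at ZT4. All 7 tested tendon markers were negative (median -0.34) and none was called, and their median was 0.19 in Bmal1hep-/- muscle. The part of these cells in the falls of matrix and vascular genes was not tested, and in whole muscle fewer cells of a type and less RNA per cell cannot be told apart.

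The other large falls lay outside the lists described so far. Trp53i11, named for its induction by p53, was 1.93, 2.49 and 3.21 FPKM at ZT16 and 11.1, 7.71 and 8.61 FPKM at ZT4 (-1.52 ± 0.19, limma adjusted p 2.68e-05). Sh3bp5, a mitochondrial scaffold for the kinase JNK, was 9.10, 10.5 and 10.3 FPKM at ZT16 and 24.6, 20.3 and 18.5 FPKM at ZT4 (-1.0 ± 0.14, limma adjusted p 5.89e-05). Both passed without any 1 library, and neither gene's groups came near each other. Auts2 (-0.85), Arhgap24 (-0.84), Tmem140 (-1.08), Relt (-0.79) and the repressor Bcl6b (-0.98) complete the 15 largest falls. Of these 5, Auts2 was lost only without ZT4 replicate 2 (limma adjusted p 0.0623), Tmem140 only without ZT16 replicate 1 or ZT4 replicate 2 (up to 0.0958), Arhgap24 without ZT16 replicate 3 or ZT4 replicate 1 or 2 (up to 0.139), Bcl6b in every fit but that without ZT16 replicate 3, and Relt in every fit but that without ZT4 replicate 3 (up to 0.338 for both). Klhl30, a muscle kelch-like adaptor of ubiquitin ligases, was called at -0.74 ± 0.15 (limma adjusted p 0.00702), and Ppp1r15a, the GADD34 subunit that reverses phosphorylation of eIF2 alpha, at -0.68 ± 0.15 (limma adjusted p 0.0196). Klhl30 was lost without ZT16 replicate 1 or ZT4 replicate 1 or 2, with up to 0.0913, and Ppp1r15a without ZT16 replicate 1 or 2 or ZT4 replicate 2, with up to 0.172.

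**Figure D3:**
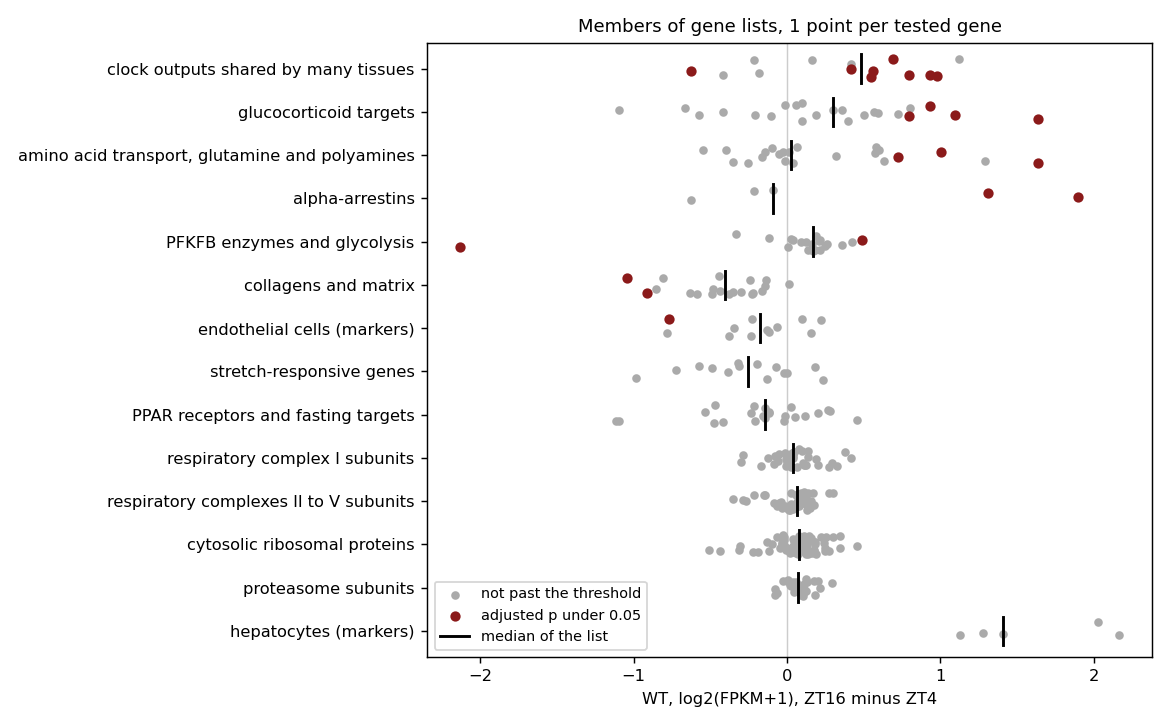
log2(FPKM + 1) at ZT16 minus ZT4 in WT muscle for every tested member of 14 gene lists; red points passed the threshold, grey points did not, and black bars mark list medians. Clock outputs and glucocorticoid targets have red points to the right, and Tsc22d3 and Fkbp5 are in both of these lists. Collagens and matrix lie to the left of 0 in 19 of 20 genes, and respiratory, ribosomal and proteasome genes cluster near 0.

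Large gene families of housekeeping functions held no call by limma. None of 75 cytosolic ribosomal proteins (median 0.08), 31 proteasome subunits (0.07), 20 aminoacyl-tRNA synthetases (0.06), 38 translation initiation factors (0.07) or 31 autophagy and mitophagy genes (0.00) passed, and 2, 1, 0, 2 and 3 of them had an unadjusted p under 0.05. Other settings that kept all 6 libraries called at most 1 member of any of these 5 lists. The stretch-responsive list had 12 of 14 negative values and a median of -0.26, also without a call, though 3 genes had an unadjusted p under 0.05. Array weights called 2 of its genes lower, and quantile normalization, removal of the length trend and the fit without ZT4 replicate 1 called 1 lower each. Ankrd1, a stretch-induced titin-binding protein, was 3.76, 2.77 and 2.98 FPKM at ZT16 and 4.47, 9.79 and 8.46 FPKM at ZT4 (-0.99 ± 0.30, limma adjusted p 0.128). The cold-inducible RNA-binding genes Cirbp and Rbm3, which follow body temperature in other tissues, had values of 0.06 and 0.03 with overlapping groups, and 26 cytosolic heat shock chaperones had no call, a median of 0.04 and 2 genes at an unadjusted p under 0.05.

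The same times in Bmal1hep-/- muscle gave 126 calls (1.16% of tested genes), 88 higher (0.812%) and 38 lower (0.351%). This comparison shares no library with that in WT, but both use the same estimate of spread per gene, so their calls are not fully separate. Of the calls, 60 were shared with WT in the same direction, which is 47.6% of those in Bmal1hep-/- and 42.9% of those in WT, and 0 were in opposite directions. The 77 genes higher in WT had a median change of 0.66 in Bmal1hep-/- against 0.80 in WT. Of these 77, 73 had the same sign, 41 were called and 61 had groups that did not overlap in that direction. The 63 genes lower in WT had a median of -0.36 in Bmal1hep-/- against -0.65 in WT, with 60 of the same sign, 19 called and 46 without overlap. For all genes, 7.83% of the Bmal1hep-/- groups were apart in the higher and 5.70% in the lower direction. Because the genes were chosen for their WT values, the smaller medians in Bmal1hep-/- cannot be read as weaker changes. Genes called in both genotypes within the same fit numbered 28 to 43 when any 1 of the 12 libraries was left out. They numbered 28, 29 and 38 without Bmal1hep-/- ZT16 replicate 1, 2 or 3, and 40, 36 and 41 without Bmal1hep-/- ZT4 replicate 1, 2 or 3. Without WT ZT16 replicate 1, 2 or 3 they numbered 31, 42 and 35, and without WT ZT4 replicate 1, 2 or 3 they numbered 38, 34 and 43. They numbered 33 without the 6 libraries that an earlier analysis of these data had set apart. Those 6 include Bmal1hep-/- ZT16 replicate 3 and ZT4 replicate 1 but not WT ZT16 replicate 3.

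Among the leading genes, Nr1d1, Glul, Myod1 and Slc25a30 had similar estimates in both genotypes. Others were less alike: Arrdc2 changed by 1.28 in Bmal1hep-/- and 1.90 in WT, Arrdc3 by 1.85 in Bmal1hep-/- and 1.31 in WT. Crip3 had 0.33 in Bmal1hep-/- and 2.01 in WT. Over all tested genes the changes in the 2 genotypes had a Pearson's r of 0.301. Nr1d1 was 20.0, 18 and 20.4 FPKM at ZT16 and 128, 146 and 129 FPKM at ZT4 in Bmal1hep-/- muscle, a change of -2.72 against -2.62 in WT, and the difference between genotypes was -0.11 (95% interval -0.59 to 0.37). Glul changed by 1.61 in Bmal1hep-/- and 1.63 in WT (difference -0.02, 95% interval -0.47 to 0.42), and Myod1 by 1.46 in Bmal1hep-/- and 1.5 in WT (difference -0.04, 95% interval -0.45 to 0.37). Slc25a30 changed by 2.27 in Bmal1hep-/- and 2.14 in WT, though its difference of 0.13 had a wide 95% interval of -0.85 to 1.10. Per2 changed by 1.06 in Bmal1hep-/- and 1.38 in WT, and Arntl, which is intact in muscle by the design, had -0.55 (limma adjusted p 0.139) in Bmal1hep-/- and -0.82 in WT.

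No gene passed the test of the difference itself. The smallest adjusted p was 1, and 425 genes had an unadjusted p under 0.05. The 95% interval reached a median of 0.42 to either side. That interval is not adjusted over genes, so differences larger than it could also go undetected. Without the same 6 libraries, 1 gene was called, Lyrm1, which encodes a LYR-motif protein, at -1.22 with a limma adjusted p of 0.0431. Lyrm1 was 4.89, 4.56 and 7.10 FPKM at ZT16 and 6.65, 8.47 and 8.15 FPKM at ZT4 in Bmal1hep-/- muscle, against 9.17, 6.97 and 6.51 FPKM at ZT16 and 5.33, 4.25 and 5.20 FPKM at ZT4 in WT muscle. The fit that called Lyrm1 left out its highest Bmal1hep-/- ZT16 value (7.10 FPKM) and its lowest Bmal1hep-/- ZT4 value (6.65 FPKM). Its change was -0.44 in Bmal1hep-/- and 0.52 in WT, a difference of -0.96 ± 0.23 with all libraries. The next smallest p-values belonged to Mcm7 (-0.42 in Bmal1hep-/- and 0.22 in WT), Nup35 (0.32 in Bmal1hep-/- and -0.47 in WT), Mcoln1 (-0.14 in Bmal1hep-/- and 0.45 in WT) and Hpcal1 (-0.40 in Bmal1hep-/- and 0.43 in WT), given here as values. Mcoln1, the lysosomal calcium channel mucolipin 1, was called in WT (limma adjusted p 0.0266), but only without ZT16 replicate 3 among the fits without 1 library, with up to 0.284 otherwise.

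Some genes called in WT had much smaller values in Bmal1hep-/- muscle, and 3 of them are described after their values were seen. Mt1 was 33.4, 32.9 and 53.4 FPKM at ZT16 and 49.4, 48.3 and 32.3 FPKM at ZT4 in Bmal1hep-/- muscle, with overlapping groups and a value of -0.13 against 1.09 in WT. The difference was -1.22 ± 0.33 (95% interval -1.90 to -0.54), which did not pass after adjustment over all genes. Crip3 had 0.33 in Bmal1hep-/- and 2.01 in WT (difference -1.68, 95% interval -3.05 to -0.31). Cdkn1c, the cell cycle inhibitor p57, had -0.14 in Bmal1hep-/- and 0.76 in WT (limma adjusted p 0.0374 in WT, passing in none of the fits without 1 library, with up to 0.291). Its difference of -0.90 (95% interval -1.45 to -0.35) also did not pass. Hepatocyte markers had a median of -0.38 in Bmal1hep-/- and 1.41 in WT, with none called in either genotype. The part of liver RNA in the values of these 3 genes was not tested.

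**Figure D4:**
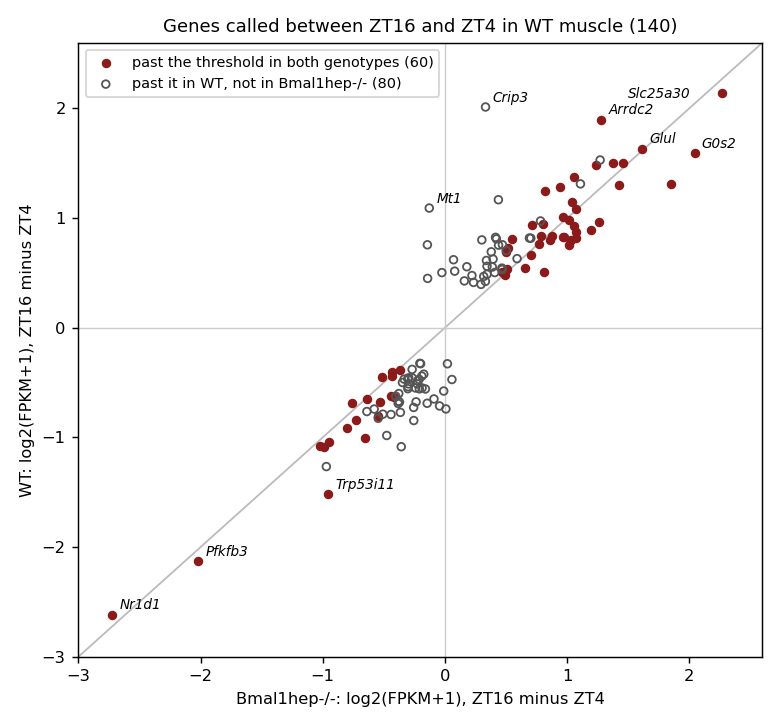
Change at ZT16 minus ZT4 in Bmal1hep-/- muscle (horizontal) and in WT muscle (vertical), on the log2(FPKM + 1) scale, for the 140 genes called in WT; filled points passed in both genotypes (60), open points in WT but not in Bmal1hep-/- (80), and the diagonal marks equal change. Nr1d1, Pfkfb3, Glul and Slc25a30 lie near the diagonal, while Crip3 and Mt1 lie near 0 for Bmal1hep-/-.

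The remaining WT times give the daily profile of the 140 genes. Because these were chosen for differing between ZT16 and ZT4, extremes at those times follow in part from the choice, and the counts are a description. Of the 77 higher genes, the highest of the 6 WT means was at ZT16 for 42, at ZT12 for 25, at ZT20 for 9 and at ZT0 for 1, and the lowest was at ZT4 for 57. Of the 63 lower genes, the highest mean was at ZT4 for 48, at ZT0 for 11 and at ZT8 for 4, and the lowest was at ZT16 for 45 and at ZT12 for 15. The other WT pairs 12 h apart use other libraries but the same estimate of spread per gene, and the genes were not chosen on them. In ZT12 minus ZT0 the 77 genes had a median of 0.42, with 31 called higher and 4 lower, and the 63 genes a median of -0.30, with 16 called lower and 0 higher. In ZT20 minus ZT8 the 77 genes had a median of 0.29, with 17 called higher and 2 lower, and the 63 genes a median of -0.06, with 5 called lower and 4 higher. The shares of all tested genes called in these pairs are not given here, so the counts have no background to be set against. Myod1 and Nfil3 are examples of opposite signs: Myod1 had 1.26 in ZT20 minus ZT8 and -0.70 in ZT12 minus ZT0, and Nfil3 had 2.40 in ZT20 minus ZT8 and -1.28 in ZT12 minus ZT0. Glul was positive in both, with 0.38 in ZT20 minus ZT8 (limma adjusted p 0.41) and 0.84 in ZT12 minus ZT0.

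The called genes also differed from all tested genes in transcript length, given here as a description. The median of the longest annotated transcript was 3588 bases for 75 higher genes, 4550 bases for 58 lower genes and 3311.5 bases for all tested genes with a length. After the trend with length was removed from each library, 85 genes were called higher and 74 lower, and 119 of the 140 were shared. That fit held only genes with a length, so some of the 140 were not tested in it.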

How the data were processed

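Per the labels' protocols, RNA of gastrocnemius muscle was selected with poly-T beads and first-strand cDNA was primed with random hexamers. The authors deposited 1 table of FPKM for 24319 gene symbols in 36 libraries; 5577 symbols were at 0 throughout. FastQC 0.11.8, STAR, mm10 and GRCm39 are named in the submitters' processing notes. The tool, annotation, scaling and build behind FPKM were not given in the sources used here.

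Values were analysed as log2(FPKM + 1) with limma 3.58.1 in R 4.3.3: 12 group means, 24 residual degrees of freedom, eBayes with trend and robust, and Benjamini-Hochberg adjustment over 10837 genes averaging 1 FPKM or more. All 36 libraries share 1 estimate of spread per gene. An exact permutation test of 3 against 3 cannot go below a p of 0.1, so none is given. Relative depth came from the FPKM worth of 1 read in 6015 low genes, with 92.1% of pairs of libraries within 0.05 on the log2 scale. No libraries held identical values.

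The text names the 15 largest changes in each direction, tested clock genes and, per list described, the called members or, where more than 6 were called, the 6 of smallest p; predicted genes were counted only. 1 clock gene is not reported here and was left out of its list. The comparison, lists and rules were chosen with earlier results of these data known. Alternatives were a pseudocount of 0.1, no filter, a filter at 5 FPKM, 2 rescalings, the replicate number as a block, fewer libraries, array weights, plain eBayes, removal of a length trend and leaving out libraries. Lengths came from GENCODE M21 (96.58% of tested genes) and promoters from RefSeq. The fits were tested on simulated data. Python 3.11.15 with pandas 2.3.3, numpy 2.4.6 and matplotlib 3.10.9 read the tables and drew the figures.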

Additional observations from a re-analysis of the deposited data

How the results depend on the processing

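Called genes at ZT16 against ZT4 numbered 77 higher and 63 lower. Array weights gave 215 and 260, and the 18 WT libraries alone gave 92 and 96. The other settings that used all 6 libraries gave 56 to 89 and 54 to 82. Leaving out 1 of the 6 gave 29 to 46 higher and 15 to 47 lower, and 13 to 21 and 4 to 9 genes at least 2-fold higher and lower. With a pseudocount of 0.1, 15 genes were at least 2-fold lower. The 6 libraries alone gave 81 and 64 calls, sharing 90 of the 140. Of the 140 genes called in WT with all libraries, 60 passed in Bmal1hep-/-. This was 29 without the 6 libraries set apart in the earlier analysis, which do not include WT ZT16 replicate 3. It was 28 to 61 over the fits without 1 library, where the WT list stays fixed. The genotype difference had 1 call without those 6 and 0 in each other setting. Deviations of same-numbered ZT16 and ZT4 libraries correlated at 0.046, -0.058 and 0.135, so the numbers were not taken as pairs. The replicate block gave 73 higher, 66 lower, 19 and 9 at least 2-fold, and 57 of the 140 passing in Bmal1hep-/-. Genes near 0 changed sign. Rbm3 was -0.02 by quantile normalization and -0.01 to 0.08 over the fits without 1 library, and Cirbp 0.00 with the length trend removed. Over the fits without 1 library, Cd79a ran from -0.38 to 0.07 and Dbp from -0.43 to 0.01. With all 6 libraries kept, named calls were lost for G0s2 under 5 settings, Ier3 and Slc25a29 under 4, Nmb, Relt and Ppp1r3c under 3, Bcl6b and Pfkfb4 under 2 and Arntl, Arrdc2, Cdkn1c, Klhl30, Mcoln1 and Trib1 under 1. Casq2 (-0.72) passed under 7 settings and Ciart (-0.81), Clock and Pnpla3 under 4 each, and other uncalled genes named under at most 3. The cause of these changes was not tested, other than fewer libraries. With depth unknown, no counting error could be given for low genes.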

Other observations

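In the cell cycle list, 2 of 16 tested genes, Wee1 and Cdkn1c, were called higher at ZT16, against 0.711% of all tested genes. The list's median was 0.02, Cdkn1c (0.76 ± 0.19, limma adjusted p 0.0374) passed in none of the 6 fits without 1 library, and the related inhibitors Cdkn1a (-0.67, limma adjusted p 0.282) and Cdkn1b (-0.13, limma adjusted p 0.85) were not called. Ier3, an immediate early gene, was 11.2, 9.37 and 10.6 FPKM at ZT16 and 5.46, 6.85 and 6.24 FPKM at ZT4 (0.67 ± 0.17, limma adjusted p 0.0381). Trib1, a pseudokinase adaptor for ubiquitin ligases, was 6.73, 7.76 and 8.77 FPKM at ZT16 and 3.87, 4.81 and 4.53 FPKM at ZT4 (0.69 ± 0.17, limma adjusted p 0.0274). Neither passed in any fit without 1 library, with adjusted p of up to 0.234 for Ier3 and 0.18 for Trib1.

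Pnpla3, a lipid droplet acyltransferase and hydrolase, was 4.57, 3.36 and 3.94 FPKM at ZT16 and 1.45, 1.13 and 1.22 FPKM at ZT4 without passing (1.12 ± 0.32, limma adjusted p 0.0986), and it passed under 4 other settings (0.000165 to 0.00299) but in no fit without 1 of the 6 libraries. Dok7, an activator of the kinase that clusters acetylcholine receptors, was above ZT4 in every ZT16 library (0.60 ± 0.21, limma adjusted p 0.239). Nmrk2, the muscle nicotinamide riboside kinase, was 36.3, 39.9 and 47.1 FPKM at ZT16 and 79.5, 56.8 and 89.3 FPKM at ZT4 (-0.84 ± 0.32, limma adjusted p 0.35), and in Bmal1hep-/- muscle its change was -1.42 (limma adjusted p 0.0269).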
